A study of Mus musculus with 4 samples.

Results

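The platelet-derived growth factor (PDGF) family was read out of kidney RNA sequencing as 6 genes, found by name among 38924 listed genes: the ligand genes Pdgfa, Pdgfb, Pdgfc and Pdgfd and the receptor genes Pdgfra and Pdgfrb. All 6 were found and all 6 had enough reads to be tested. PDGF chains are secreted as dimers that bring receptor tyrosine kinases together at the surface of mesenchymal cells. PDGF-A and PDGF-C act through the alpha receptor, PDGF-D acts mainly through the beta receptor, and PDGF-B binds both. In the glomerulus, PDGF-B made by endothelium recruits mesangial cells, which carry the beta receptor, and PDGF signalling is a known driver of mesangial growth in glomerular disease. The alpha receptor is best known in kidney as a gene of interstitial fibroblasts.

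The kidneys came from female CB-17 SCID mice, a line on a Balb/c background that has no functional B or T cells, so controls and treated mice alike were immunodeficient. Mice received either saline (2 libraries) or complexes of IgG with galactose-deficient IgA1 (Gd-IgA1), the autoantigen of IgA nephropathy (2 libraries). Both were given through the tail vein as 3 injections within 7 days, and the treated kidneys were taken 1 day after the last of them. The comparison asks what such complexes do to the kidney. The mice received complexes made outside the body, so this is a passive model, and the labels give no age and do not say that each library came from its own mouse. If they did not, p-values measure only technical spread.

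Depth was 19675879 to 22791960 reads assigned to genes per library. Kidney tubule genes were abundant in all 4 libraries, with Umod, the thick ascending limb protein uromodulin, at 3949 to 5748 CPM (a gene's reads scaled to a common library total), so the tissue label held. Saline 1 stood apart from the other libraries in several cell type markers, among them those of fat and Aqp2 of principal cells. Summed adipocyte markers were 54.5 CPM in saline 1, 431.4 CPM in saline 2, 1364 CPM in immune complex 1 and 1021 CPM in immune complex 2, and Lep was at 0 reads in saline 1. Aqp2, the water channel of principal cells, stood at 1704, 544.3, 528.0 and 301.9 CPM in the same order. In saline 1 the smooth muscle gene Tagln was lower (15.5, 29.0, 35.4 and 32.6 CPM), and Dcn and Plvap, given further on, also lay outside the range of the other 3 libraries. For Pdgfra and Hspg2 the log2 fold change is therefore given with and without saline 1. Fold changes of marker genes and marker lists are given with all 4 libraries only, so they may depend on a single library, such as saline 1. Over all tested genes the saline libraries were nevertheless the more alike pair. The median gap was 1.12-fold between them and 1.27-fold between the immune complex libraries.

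All 6 genes were expressed at moderate and similar levels. On the scale of RPKM, the authors' read count scaled to exon length and library size, which allows genes to be compared, Pdgfb had the highest mean over the 4 libraries at 6.63, followed by Pdgfa at 5.27, Pdgfrb at 4.04, Pdgfc at 3.91, Pdgfra at 3.74 and Pdgfd at 2.90. Among the 16334 genes tested, Pdgfb was at the 62.8th percentile of mean RPKM and Pdgfd at the 44.6th. The order differed in every library. Pdgfb was first in saline 2 and both immune complex libraries and Pdgfa in saline 1, while Pdgfd was last in every library except immune complex 2, where Pdgfra was last. Pdgfrb, Pdgfc and Pdgfra, the neighbours in the middle of that order, had ranges over the libraries that overlapped one another. The 4 ligand genes together summed to 21.1 (saline 1), 18.5 (saline 2), 17.7 (immune complex 1) and 17.6 RPKM (immune complex 2). The 2 receptor genes summed to 11.0, 7.78, 7.24 and 5.14 RPKM in that order of libraries. Both sums were thus highest in saline 1.

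**Figure D1:**
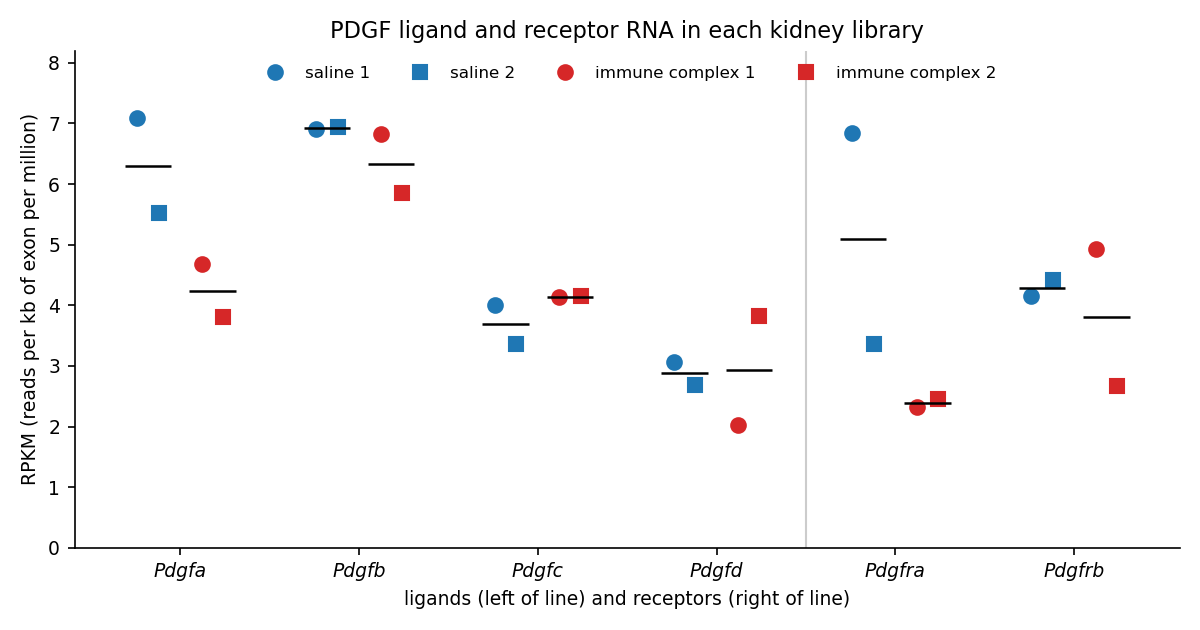
Each point is the RPKM of 1 gene in 1 library, blue for saline and red for immune complex, with circles for replicate 1, squares for replicate 2 and black bars for group means. Pdgfra stands at 6.84 RPKM in saline 1 and between 2.32 and 3.36 in the other libraries, whereas Pdgfb stays between 5.85 and 6.94.

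None of the 6 genes passed the test for a difference between immune complex and saline kidneys. The test was edgeR's quasi-likelihood test with Benjamini-Hochberg adjustment at 0.05, which called 0 of all 16334 genes (0%), while 749 (4.59%) had an unadjusted p under 0.05. On the same reads limma-voom called 0 genes and DESeq2 called 96, none of them a PDGF gene. The members with an unadjusted p under 0.05 were Pdgfra and Pdgfa, both lower in immune complex kidneys. Of all genes, 2.6% were lower and 1.98% higher at that p. Groups did not overlap in CPM for 3 of the 6 genes, Pdgfra and Pdgfa (lower) and Pdgfc (higher), against 30% of all tested genes, of which 14.6% were lower and 15.4% higher. With 2 libraries against 2 an exact two-sided permutation test of a single gene cannot go below p = 0.333.

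These 3 genes are shown by the DNA just before a start site that RefSeq gives them. They were picked because their groups did not overlap in CPM, as holds for 30% of all tested genes. The groups of Pdgfb, Pdgfd and Pdgfrb overlapped, and the pick does not show that the 3 genes differ from these. The sequences are from RefSeq's promoter windows on build GRCm38.p6, each on the gene's own strand, 5′ to 3′, without bases that GENCODE M21 places in an exon of the gene, and capitals mark CpG dinucleotides. The Pdgfra stretch is chr5:75152001-75152250 (plus strand), the Pdgfa stretch chr5:138995038-138995194 (minus strand, inside the gene span given further on, since GENCODE M21 has Pdgfa transcripts that start farther upstream) and the Pdgfc stretch chr3:81036166-81036415 (plus strand).
Pdgfra: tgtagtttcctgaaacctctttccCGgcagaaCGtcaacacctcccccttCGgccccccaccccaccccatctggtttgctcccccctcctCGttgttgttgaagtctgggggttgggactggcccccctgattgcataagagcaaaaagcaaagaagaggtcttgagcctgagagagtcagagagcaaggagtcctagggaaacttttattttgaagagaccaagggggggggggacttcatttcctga
Pdgfa: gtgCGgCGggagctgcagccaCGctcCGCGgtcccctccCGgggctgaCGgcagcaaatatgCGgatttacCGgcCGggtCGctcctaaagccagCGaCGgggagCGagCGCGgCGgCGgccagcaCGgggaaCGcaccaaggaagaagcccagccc
Pdgfc: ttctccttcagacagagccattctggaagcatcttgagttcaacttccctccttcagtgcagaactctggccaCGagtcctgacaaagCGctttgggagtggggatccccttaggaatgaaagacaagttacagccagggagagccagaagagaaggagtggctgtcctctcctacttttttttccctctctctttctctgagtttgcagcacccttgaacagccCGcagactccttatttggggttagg

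The Pdgfa stretch held 20 CpG dinucleotides in 157 bases and was 72.0% G and C, above 93.7% of the 32851 windows cut to the same length. Pdgfra held 4 in 250 bases (54.4% G and C) and Pdgfc 3 in 250 bases (50.8% G and C), against a median of 6 CpG over all windows of that length. Each stretch was searched on both strands for 5 motifs: the TATA box core TATAAA, the CCAAT box, the GC box GGGCGG, the E-box CANNTG and the AP-1 site TGANTCA. The search found 1 E-box in Pdgfra, a motif that 66.2% of windows of its length hold, and no other match in these 3 stretches. Over all windows of 250 bases the other motifs occur in 6.75% (the AP-1 site) to 33.9% (the CCAAT box). Pdgfra and Pdgfa, the members with lower values in immune complex kidneys, thus differed in base composition.

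Pdgfra (chromosome 5, 75152291 to 75198204, plus strand), the receptor of PDGF-A and PDGF-C, showed the largest difference of the 6 genes. Its level was 46.1 CPM in saline 1, 23.98 CPM in saline 2, 17.1 CPM in immune complex 1 and 18.3 CPM in immune complex 2 (938, 507, 381 and 387 reads, a library order used for values from here on). Saline 1 was thus high and the other 3 libraries lay closer together, with saline 2 still above both immune complex libraries. The group means were 35.1 ± 15.7 CPM and 17.7 ± 0.859 CPM (SD, n = 2 each), and the log2 fold change was -0.99 ± 0.31 (SE; edgeR unadjusted p = 0.0175, adjusted p = 0.941). As a fold, immune complex over saline was 0.504, with a 95% interval of 0.300 to 0.849. Without saline replicate 1 the log2 fold change was -0.44 ± 0.39 (edgeR adjusted p = 0.9999), and without saline replicate 2 it was -1.39 ± 0.38 (edgeR adjusted p = 0.0205), where 279 genes were called in all. In the authors' deposited table, coded saline over immune complex, Pdgfra has a log2 fold change of 0.62 with a standard error of 0.21 and an adjusted p of 0.239. DESeq2 run here on the same reads gave -0.998 ± 0.32 for immune complex over saline, so the sizes of these estimates are not comparable. Why the deposited value lies nearer no change was not tested. In a bulk sample, fewer cells of a type and less RNA per cell cannot be told apart. The 1.92-fold gap between the saline libraries exceeded that of 94.1% of tested genes, while the 1.07-fold gap between the immune complex libraries exceeded that of 14.6%.

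Fibroblast markers as a list did not have the profile of Pdgfra. Of 8 interstitial fibroblast markers 6 had a higher and 2 a lower mean after immune complexes (median log2 fold change 0.39, none past the test), and their summed level was 120.7, 156.6, 161.5 and 165.9 CPM. Dcn, the matrix proteoglycan decorin, stood at 10.4, 25.4, 28.7 and 34.97 CPM, the reverse order of groups from Pdgfra. Col1a2, a collagen I chain and the most abundant of these markers, stood at 51.8, 49.95, 45.5 and 36.5 CPM. The 6 adipose stromal markers summed to 498.3, 472.7, 447.8 and 603.5 CPM, mostly Ly6a. Gata3, fixed here as a mesangial marker but also made by principal cells, followed the order of Pdgfra only in part, at 31.8, 23.1, 17.9 and 15.1 CPM. Aqp2 was likewise highest in saline 1 and lowest in immune complex 2. All 6 urothelial markers had lower means after immune complexes (median log2 fold change -1.49, none past the test). Groups did not overlap for 1 of the 6, against 14.6% of all tested genes in that direction. The summed level of the urothelial markers was 29.1, 65.6, 12.6 and 14.0 CPM, highest in saline 2. Upk3b, a uroplakin and the most abundant of the urothelial markers, stood at 23.8, 13.6, 1.43 and 3.54 CPM (-2.91 ± 0.48, edgeR unadjusted p = 0.000615, adjusted p = 0.457). Like Pdgfra it was highest in saline 1 and lower in both immune complex libraries. Every other urothelial marker of the list was lowest in saline 1 and highest in saline 2, so Upk3b does not stand for the list. What part fat, principal cells or urothelium have in the Pdgfra value was not tested.

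Reads inside and outside the exons of Pdgfra did not vary alike. Exon reads numbered 907, 474, 356 and 359, and reads across exon junctions 132, 55, 34 and 41. Intron reads numbered 31, 33, 25 and 28. Introns thus took 3.30% of Pdgfra reads in saline 1 (95% Wilson interval 2.34% to 4.65%), 6.51% in saline 2 (4.67% to 9.0%), 6.56% in immune complex 1 (4.48% to 9.51%) and 7.24% in immune complex 2 (5.05% to 10.3%). The saline 1 interval touches neither that of saline 2 nor that of immune complex 2. The intervals allow for counting error alone, because without molecular identifiers copies of 1 molecule cannot be recognised. With exon reads alone the log2 fold change of Pdgfra was -0.998 ± 0.32. A microRNA gene inside the Pdgfra locus had at most 1 read.

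**Figure D2:**
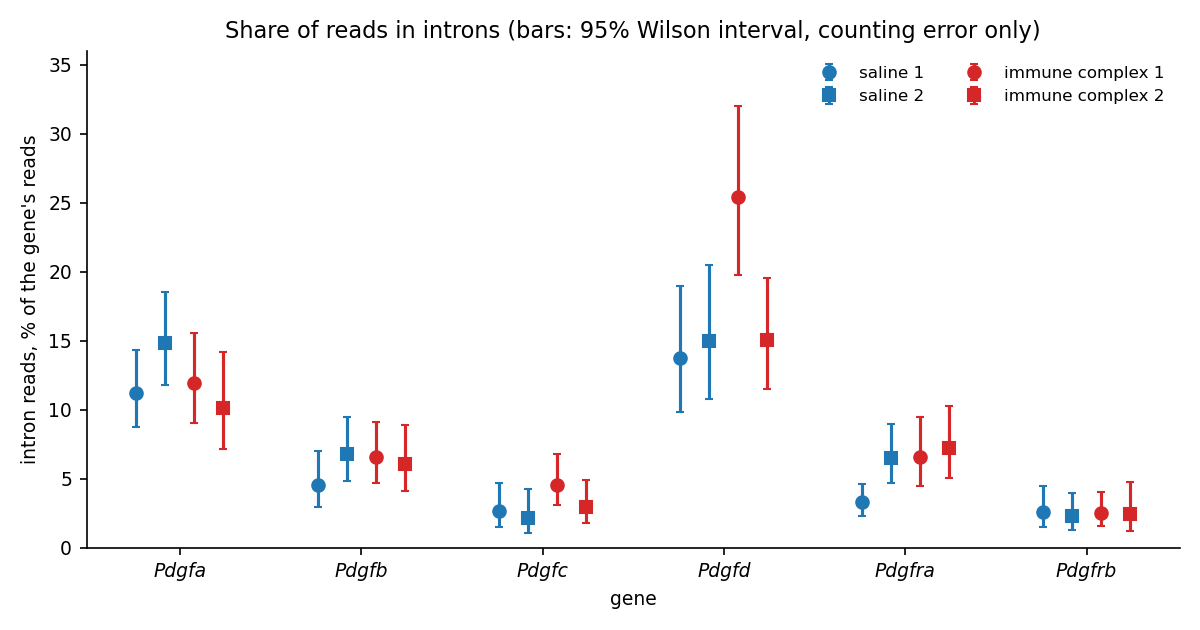
Each point is the share of a gene's reads that lie in introns, in percent, in 1 library, and bars are 95% Wilson intervals that cover counting error only. Pdgfra has its lowest share, 3.30%, in saline 1, and Pdgfd its highest, 25.4%, in immune complex 1.

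Pdgfrb (chromosome 18, 61045150 to 61085061, plus strand), the receptor of mesangial cells and pericytes, did not separate the groups. Its level was 22.6, 24.6, 28.3 and 15.4 CPM (459, 520, 631 and 326 reads). The immune complex libraries were the highest and the lowest of the 4, and their 1.84-fold gap exceeded that of 89.4% of tested genes. The fold was 0.926, with a 95% interval of 0.566 to 1.52, so the data bound a change to less than these limits and do not show its absence. Leaving out immune complex replicate 2 turned the direction, from a log2 fold change of -0.11 to 0.26, and leaving out immune complex replicate 1 gave -0.61. Introns held 2.31% to 2.61% of Pdgfrb reads in the 4 libraries, the narrowest range of the 6 genes.

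The cells known for the beta receptor gave the following values. The 5 mesangial markers had 2 higher and 3 lower means (median log2 fold change -0.11) and summed to 95.04, 85.4, 90.7 and 79.7 CPM. The 2 higher ones were Agtr1a, the most abundant of them, at 29.3, 32.2, 36.8 and 33.1 CPM, and Des, at 11.3, 12.6, 18.8 and 15.8 CPM. Of 8 pericyte and smooth muscle markers 7 had higher means (median 0.41, none past the test), with sums of 148.3, 204.2, 251.9 and 205.6 CPM. Rgs5, a pericyte regulator of G protein signalling and the most abundant of them, stood at 45.9, 59.6, 70.0 and 62.9 CPM. Pdgfrb and Rgs5 thus both peaked in immune complex 1, but Rgs5 was lowest in saline 1 and Pdgfrb in immune complex 2. The median log2 fold change over all tested genes was 0.01.

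The balance of the receptors did not separate the groups. Pdgfra over Pdgfrb, as a ratio of RPKM, was 1.65, 0.759, 0.471 and 0.918, so immune complex 2 lay between the saline libraries. Pdgfra made up 62.3% of receptor RPKM in saline 1 and 43.1%, 32.0% and 47.9% in the others. The ratio of summed ligand to summed receptor RPKM was 1.92, 2.38, 2.44 and 3.43, with both immune complex libraries above both saline libraries.

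**Figure D3:**
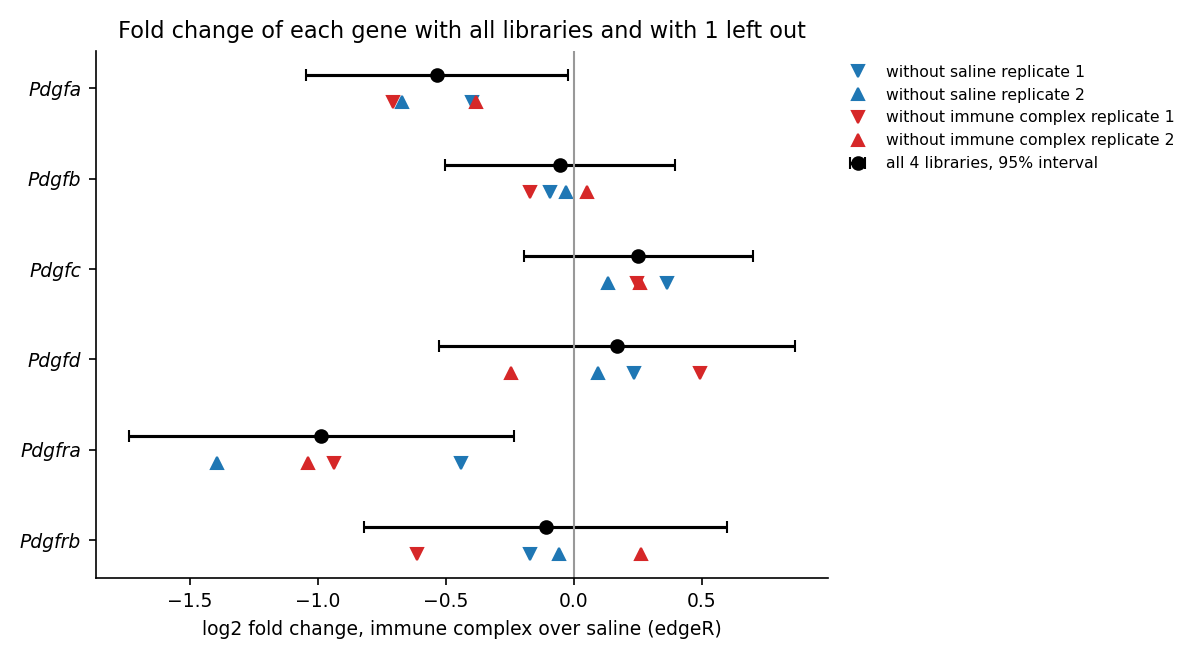
Black points are log2 fold changes, immune complex over saline, with 95% intervals from all 4 libraries, and triangles are the values with 1 library left out. Pdgfra and Pdgfa lie below 0 throughout, at -1.39 to -0.44 and -0.71 to -0.38 with single libraries left out, while Pdgfb, Pdgfd and Pdgfrb change sign without immune complex replicate 2.

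Pdgfa (chromosome 5, 138976014 to 138997370, minus strand) encodes a ligand of the alpha receptor. Its level was 24.1, 20.1, 16.9 and 13.5 CPM (490, 424, 378 and 286 reads). Both immune complex libraries lay below both saline libraries, with gaps of 1.202-fold and 1.25-fold inside the groups. The means were 22.1 ± 2.86 and 15.2 ± 2.42 CPM (SD, n = 2 each), and the log2 fold change was -0.54 ± 0.21 (edgeR unadjusted p = 0.0431, adjusted p = 0.99997). The fold was 0.690, with a 95% interval of 0.483 to 0.985. Some Pdgfa reads are less certain than those of the other members. Between 8.74% and 13.3% of them were placed at more than 1 location, against at most 6.74% for any other member, and a gene on the opposite strand, 6330403L08Rik (45 to 78 reads), overlaps the Pdgfa start and the sequence shown above. With uniquely placed reads the log2 fold change was -0.48 (unadjusted p = 0.0582), and with exon reads -0.48 (unadjusted p = 0.0676). The table of reads per gene does not separate the splice forms of Pdgfa, which differ in a tail that holds the protein at the cell surface.

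Pdgfb (chromosome 15, 79995900 to 80014808, minus strand), the ligand that binds both receptors, was the steadiest of the 6. The 4 libraries held 20.5, 21.5, 21.8 and 18.6 CPM. The immune complex values bracketed the saline values. The fold was 0.962, with a 95% interval of 0.705 to 1.31. Endothelial cells and platelets are its known sources. The 8 endothelial markers had 2 higher and 6 lower means (median log2 fold change -0.23), and summed to 590.4, 444.3, 444.2 and 381.0 CPM. Plvap, the protein of fenestral diaphragms and the most abundant of them, stood at 231.7, 147.6, 137.1 and 99.7 CPM, a spread that Pdgfb did not have. Of 5 platelet markers only Itga2b and Pf4 had enough reads to be tested. Itga2b, the platelet integrin chain, stood at 11.5, 7.33, 6.09 and 3.97 CPM, with both immune complex libraries below both saline libraries (log2 fold change -0.90 ± 0.34, edgeR unadjusted p = 0.0345, adjusted p = 0.99997). Pf4 was under 1 CPM in every library, and its groups overlapped (log2 fold change -0.31 ± 0.54). The platelet markers that were not tested had at most 10 reads in any library, and their groups overlapped too. Among them Gp9 was at 0 reads in saline 1 and immune complex 2. Itga2b was thus the only platelet marker of the list that separated the groups, as 14.6% of all tested genes did in that direction. It does not stand for the list, whose other markers were under 1 CPM in every library.

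Pdgfc (chromosome 3, 81036416 to 81214040, plus strand) encodes a ligand of the alpha receptor that is secreted latent and released by proteolysis. It was the member with both immune complex libraries above both saline libraries, at 20.3, 17.4, 22.5 and 22.3 CPM. The distance from the higher saline to the lower immune complex library was smaller than the distance between the saline libraries. The log2 fold change was 0.25 ± 0.19 (edgeR unadjusted p = 0.222, adjusted p = 0.99997), and the fold was 1.19, with a 95% interval of 0.874 to 1.62. Introns held 2.18% to 4.58% of its reads.

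Pdgfd (chromosome 9, 6168612 to 6378843, plus strand), the other latent ligand, stood at 10.7, 9.79, 8.65 and 14.4 CPM. As with Pdgfrb, the immune complex libraries were the lowest and the highest, but in the opposite order. The fold was 1.12, with a 95% interval of 0.694 to 1.82, and leaving out immune complex replicate 2 moved the log2 fold change from 0.17 to -0.25, the other direction, while leaving out immune complex replicate 1 gave 0.49. Introns held 25.4% of Pdgfd reads in immune complex 1 (95% Wilson interval 19.8% to 32.0%), against 13.8%, 14.98% and 15.1% in saline 1, saline 2 and immune complex 2. The immune complex 1 interval overlaps that of saline 2 (10.8% to 20.5%), but not those of saline 1 and immune complex 2. In immune complex 1 Pdgfd had its fewest exon reads, 144, and its most intron reads, 49. The single gene that lies within the Pdgfd locus, Ddi1, had 0 reads in all libraries, which allows up to 3 reads in each.

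**Figure D4:**
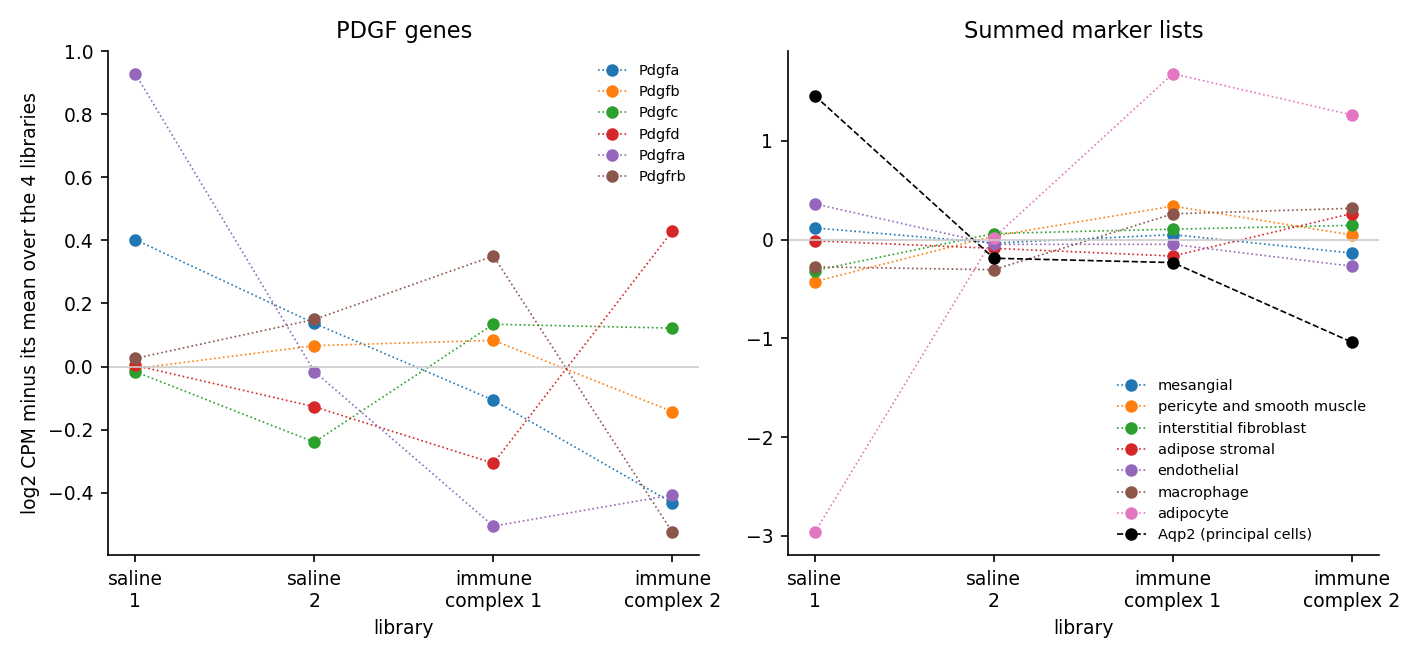
Points are log2 CPM of each PDGF gene (left) and of summed marker lists and Aqp2 (right) in each library, minus the mean over the 4 libraries, and dotted or dashed lines join values of 1 gene or list and imply no order. Pdgfra and Aqp2 are highest in saline 1, where the adipocyte sum, 54.5 CPM, is lowest.

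Genes that release, hold or present PDGF were read from a fixed list of 13, and 0 of 13 passed the test in either direction. Of them 6 had higher and 7 lower means (median log2 fold change -0.11, against 0.01 over all genes), 3 had an unadjusted p under 0.05 and a lower mean, and groups did not overlap for 6 lower and 1 higher. Over all tested genes 2.6% were lower at that p, and groups did not overlap for 14.6% lower and 15.4% higher. Hspg2 and Pcsk6 were among these 3. Hspg2 encodes perlecan, a heparan sulfate proteoglycan of basement membranes, and heparan sulfate holds the longer PDGF forms near the cell. Its level was 139.7, 81.4, 70.5 and 48.6 CPM (log2 fold change -0.89 ± 0.31, edgeR adjusted p = 0.974). Like Pdgfra it was highest in saline 1, and without that library its log2 fold change was -0.45. Pcsk6, a proprotein convertase, stood at 67.1, 58.7, 35.04 and 48.2 CPM (-0.60 ± 0.21, edgeR adjusted p = 0.981).

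The proteases that free the latent ligands did not separate the groups. Plat, the tissue plasminogen activator that cleaves PDGF-C, stood at 93.6, 51.2, 65.4 and 84.2 CPM, and Plau, the urokinase that cleaves PDGF-D, at 524.1, 607.9, 430.9 and 721.8 CPM. Their log2 fold changes were 0.05 ± 0.30 and 0.03 ± 0.27. On the RPKM scale Plau averaged 241.3 over the 4 libraries, against 2.90 for Pdgfd, the ligand it acts on. Immune complex 2 held the highest level of both Plau and Pdgfd, and immune complex 1 the lowest of both. This is not particular to them, as the tubule marker Lrp2 did the same (1890, 2135, 1705 and 2436 CPM). A link between Plau and Pdgfd was not tested.

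The machinery inside the cell spanned a smaller range of fold changes. Of 29 adaptors and kinases that act below the receptors 15 had higher and 14 lower means, and 0 passed the test. All log2 fold changes lay between -0.27 and 0.29 (median 0.01). An unadjusted p under 0.05 was reached by 0 of them, against 4.59% of all tested genes. Groups did not overlap for 7 lower and 2 higher, against 14.6% and 15.4% of all tested genes. The lowest p-values were those of Mapk3, the kinase ERK1 (90.2, 89.1, 81.6 and 67.5 CPM), and Shc1, an adaptor to Ras (54.5, 52.8, 44.9 and 45.9 CPM). Their log2 fold changes were -0.27 ± 0.18 and -0.24 ± 0.16. Of 19 phosphatases, ubiquitin ligases and other genes that limit or shape receptor signalling 10 had higher and 9 lower means (median 0.02, range -0.28 to 0.35). Among these genes 0 passed or had an unadjusted p under 0.05, and groups did not overlap for 3 lower and 2 higher. Spry4, a feedback inhibitor of Ras signalling, differed by -0.28 ± 0.25.

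Relatives of the family gave a similar picture. Of 14 genes for VEGF ligands and receptors and for the receptors Kit, Csf1r and Flt3 with their ligands, 13 had enough reads. Of these 7 had higher and 6 lower means, and 0 passed the test (median 0.02). An unadjusted p under 0.05 was reached by 0 of them, against 4.59% of all tested genes. Groups did not overlap for 2 lower and 3 higher, against 14.6% and 15.4% of all tested genes. Kitl, the ligand of Kit, stood at 25.7, 26.8, 31.2 and 38.5 CPM (0.41 ± 0.19). Flt4, the receptor of VEGF-C, stood at 17.1, 19.1, 14.2 and 12.5 CPM (-0.44 ± 0.20). Pdgfra was farther from 0 than any of these 13 genes, whose log2 fold changes ran from -0.44 to 0.75.

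**Figure D5:**
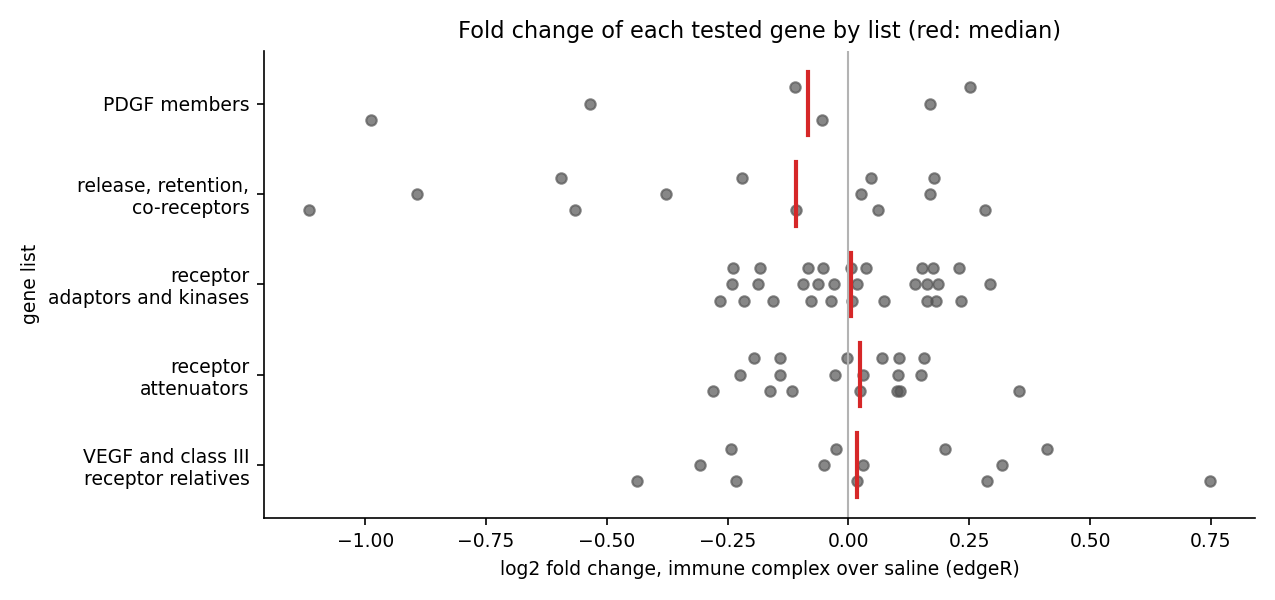
Each point is the log2 fold change, immune complex over saline, of 1 tested gene, and red bars are list medians. Adaptors and kinases lie between -0.27 and 0.29, whereas the PDGF genes reach -0.99 (Pdgfra) and the release and retention genes include Hspg2 at -0.89.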

How the data were processed

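Kidney RNA of 4 libraries was analysed. Per the file headers, the authors deposited raw read counts per gene (total, unique, exon, junction and intron) and RPKM in 1 table per sample. A further deposited table holds the authors' comparison, with log2 fold change, its standard error, p-value and adjusted p-value; its mean signal and test score, also deposited by the authors, were not used. That comparison is coded saline over immune complex, as all 80 genes it calls have the opposite sign in the reads. STAR 2.5.2b, DESeq2 and GRCm38 appear without a role in the submitters' processing notes. For the counter and its strand setting, nothing is given in the sources used here. Unstranded counting would mix a gene with its antisense partner.

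Total gene reads, 2 libraries against 2, were fitted without a block by edgeR 4.0.16 under R 4.3.3 (TMM scaling, the filter filterByExpr, glmQLFit and glmQLFTest), with p-values adjusted over all 16334 tested genes. The common biological coefficient of variation was 0.212. CPM uses TMM-scaled totals. Standard errors are the fold change over the square root of F. Alternatives were DESeq2 1.42.0, limma-voom 3.58.1, other scaling, filter and read classes, a replicate block and leaving out each library. The fitting code was tested on simulated data.

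The members and lists were chosen with earlier results of these data known, so nothing was adjusted over a list alone. All 154 list entries were matched, by name for the members and Flt3l and by gene ID otherwise. The text names the 6 members, the 2 genes of lowest p in each pathway list, the most abundant gene of marker lists, and the 2 genes nearest in profile to each member; some genes that this rule picks are not reported here. Plat, Plau, Dcn, Des, Gata3, Aqp2, Lrp2, Tagln, Pf4, Gp9, Lep and Ddi1 were named after their values were seen. RefSeq promoter windows were found for Pdgfa (2), Pdgfc, Pdgfd and Pdgfra.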

Additional observations from a re-analysis of the deposited data

How the results depend on the processing

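No PDGF gene was called by DESeq2, limma-voom, other scaling (RLE or library totals), no filter on low counts, exon reads, unique reads or the replicate block. Leaving out single libraries gave 0 to 1 called members, the 1 being Pdgfra without saline replicate 2. Genes called in all were 96 (DESeq2), 2 (no filter), 1 (unique reads) and 0 to 279 with single libraries left out. With single libraries left out, the log2 fold change ran from -0.17 to 0.052 for Pdgfb, from -0.25 to 0.49 for Pdgfd and from -0.61 to 0.26 for Pdgfrb. Each of the 3 turned direction without immune complex replicate 2; the cause was not tested. Outside the libraries left out, Pdgfra ranged from -1.06 to -0.91 and Pdgfa from -0.60 to -0.48. The median of the release and retention list was -0.33 when saline replicate 2 was left out and -0.35 when immune complex replicate 2 was. Both groups use replicate numbers 1 and 2, and no label states a pairing. Deviations of same-numbered libraries correlated at -0.13 across genes. With the replicate block edgeR called 55 genes, and with the crossed replicate block, chosen after seeing the data, 160, with 0 members in either. Dividing RPKM by TMM factors moved no mean level beyond its spread. As these factors ran only from 0.977 to 1.034, such a move was hardly possible. With 2 libraries a group, the 95% intervals reach folds of 1.82 (Pdgfd) in members near no change.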

Other observations

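Genes whose profile over the 4 libraries was most like that of each member were found by the root mean square difference of centred log2 CPM, among 13177 tested genes with at least 1 CPM. With 4 values per gene, close matches arise for any profile. Near Pdgfra lay Lypd6b, at 12.7 CPM in saline 1, 6.24 CPM in saline 2, 4.53 CPM in immune complex 1 and 5.20 CPM in immune complex 2 (difference 0.048 in log2 units).

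Near Pdgfa lay Hhex, a homeobox factor, at 2.46, 2.03, 1.66 and 1.32 CPM (0.016), and within the fixed lists Itga8, an integrin chain of mesangial cells, at 13.9, 10.7, 10.2 and 8.13 CPM (0.071). Itga8 does not stand for the mesangial markers, as Agtr1a and Des had higher means after immune complexes. For Pdgfd the nearest were Tgfbr1, a TGF-beta receptor, at 59.0, 54.3, 47.9 and 79.5 CPM (0.0039) and Fpgt (0.0089). For Pdgfrb they were Thap3 (0.010) and Uqcr10, a subunit of respiratory complex III (0.012), and within the fixed lists Slc12a3, the thiazide-sensitive cotransporter of the distal tubule, at 505.1, 538.6, 644.2 and 362.8 CPM (0.037). Pdgfrb thus lay closer to a distal tubule gene than to any mesangial or pericyte marker of the lists. Pdgfb lay nearest to Psmc4 (0.0021) and Wdr55 (0.011), and Pdgfc to Atp6v0d2 (0.011) and B3galnt1 (0.017).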
